A study of Mus musculus with 12 samples.

Results

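The subject here is the loss of any stabilin in the endothelium of the liver sinusoid, taken as the equal-weight mean of 3 knockout genotypes and set against wild type. All 12 arrays of the series entered, 9 from knockouts and 3 from wild type (WT). Of 24011 genes tested, 93 (0.387%) differed between the pooled knockouts and WT at an adjusted p under 0.05 in limma, a linear model with a moderated test, 14 higher (0.0583%) and 79 lower (0.329%). The genes described are the 91 of these (0.379%) whose 3 genotype differences from WT all had the same sign, 78 lower (0.325%) and 13 higher (0.0541%). The same sign alone is common, since 10373 genes (43.2%) lay on 1 side of WT in all 3 genotypes with no test applied. The 3 genotypes were compared with the same WT arrays, so the sharing of a sign is a description and not 3 independent observations.

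Affymetrix arrays were used to profile RNA of the sinusoidal endothelial cells (LSECs), which CD146 beads had drawn from perfused livers. Besides WT there were mice without Stab1 (Stab1KO), mice without Stab2 (Stab2KO) and mice without either gene (DKO), with 3 arrays in each of the 4 groups, and every array held RNA pooled from 3 mice aged 3 to 4 months. All samples carry the strain label C57BL/6J and no treatment. The labels give neither the design of the knockout alleles nor the breeding that produced the WT mice (littermates or not), so a difference of colony or substrain cannot be told apart from genotype in anything set against WT.

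Stabilin-1 and stabilin-2 are large scavenger receptors of the LSEC surface, which clear hyaluronan, modified lipoproteins, matrix fragments and other ligands from the blood. Hepatic stellate cells lie beneath this endothelium in the space of Disse, store vitamin A as retinyl ester, make much of the sinusoidal matrix and act as liver pericytes. Both cell types release bone morphogenetic proteins (BMPs), which signal to endothelium and hepatocytes.

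The endothelial label was borne out by high signal of LSEC markers in all 12 arrays. Clec4g ranged from 13.44 to 13.79 log2, Oit3 from 13.42 to 13.67, Dnase1l3 from 12.99 to 13.40 and Lyve1 from 12.39 to 13.09, against an array median of 5.11. Of 22 measured LSEC identity genes other than the stabilins, limma called 0 in the pooled comparison, with 3 lower and 0 higher at an unadjusted p under 0.05 and a median difference of -0.10. Over all 24011 genes 875 were lower and 696 higher at that unadjusted threshold. In all 3 genotypes 11 lay below WT and 1 above, against 22% and 21.2% over all genes. The mean level of the 22 was 12.37 to 12.40 in WT, 12.34 to 12.39 in Stab1KO and 12.33 to 12.36 in Stab2KO. In DKO it was lower, at 11.93 to 12.24, with a median difference of -0.23. DKO replicate 3 stood apart, correlating with the other arrays at 0.956 to 0.968, while every other array had a partner at 0.992 or more. Its 14 neutrophil genes averaged 11.5 log2 against 5.43 to 6.82 in the other 11 arrays. Without it, 88 of the 91 genes were still called in 1 direction.

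The targeted genes followed the labels. Stab1 measured 12.55, 12.46 and 12.62 in WT and 12.48, 12.52 and 12.59 in Stab2KO, against 5.30, 5.45 and 5.16 in Stab1KO and 5.44, 5.27 and 4.98 in DKO (log2, replicates 1, 2 and 3, the order used throughout). Stab2 measured 12.99, 13.07 and 13.09 in WT and 13.0, 12.99 and 13.02 in Stab1KO, against 7.40, 6.76 and 6.26 in Stab2KO and 6.89, 7.60 and 5.46 in DKO. Both count among the 78 lower genes only because the third genotype lay below WT by 0.01 for Stab1 and by 0.04 for Stab2, so 76 lower genes are not deletion targets.

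The falls were large and shared, and the rises were few and small. Of the 78 lower genes 51 differed by more than 1 log2 and 16 by more than 2, while of the 13 higher genes 2 exceeded 1 log2 and 1 exceeded 2. The median pooled difference was -1.27 for the lower genes (-1.33 in Stab1KO, -1.06 in Stab2KO and -1.47 in DKO) and 0.64 for the higher genes (0.37, 0.68 and 0.91), against -0.00 over all genes tested. In 69 of the lower genes all 9 knockout arrays lay below all 3 WT arrays, as they did in 199 genes (0.829%) over all. Of the higher genes 7 had all 9 knockout arrays above all 3 WT arrays, against 103 (0.429%) over all. By itself Stab1KO differed from WT in 74 genes (0.308%), Stab2KO in 71 (0.296%) and DKO in 432 (1.8%). A stricter reading asks for a call in each genotype by itself, and 36 genes (0.15%) met it with a fall and 0 (0%) with a rise by limma. At an unadjusted p under 0.05 in each genotype there were 137 lower and 51 higher genes, and with arrays weighted by their quality 2 genes rose in each.

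Several of the leading falls were genes of secreted ligands. Bmp5, Bmp10 and Gdf2, which encodes BMP9, belong to the BMP family, and in liver all are known mainly from stellate cells. For these genes, and for Lrat and Colec11 described further on, the 250 bases before the transcription start are shown as examples from the 15 largest falls. They come from RefSeq on GRCm38.p6, capitals mark matches on either strand to AGATAA (bound by GATA factors), to TATAAA (the core promoter box) or to CAGCTG (an E-box), and the coordinates and strand are chr9:75775115-75775364 (+) for Bmp5, chr6:87428744-87428993 (+) for Bmp10, chr14:33940789-33941038 (+) for Gdf2, chr3:82903975-82904224 (-) for Lrat and chr12:28623331-28623580 (-) for Colec11.
Bmp5: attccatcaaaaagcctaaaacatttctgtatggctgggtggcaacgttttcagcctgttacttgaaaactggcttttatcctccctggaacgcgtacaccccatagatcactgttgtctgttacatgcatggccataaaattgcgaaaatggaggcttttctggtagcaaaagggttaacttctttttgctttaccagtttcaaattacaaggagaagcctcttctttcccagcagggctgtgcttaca
Bmp10: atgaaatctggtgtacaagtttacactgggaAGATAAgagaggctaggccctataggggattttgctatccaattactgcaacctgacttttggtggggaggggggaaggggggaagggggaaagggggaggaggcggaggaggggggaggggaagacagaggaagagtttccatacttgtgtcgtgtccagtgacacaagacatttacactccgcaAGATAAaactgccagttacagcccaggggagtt
Gdf2: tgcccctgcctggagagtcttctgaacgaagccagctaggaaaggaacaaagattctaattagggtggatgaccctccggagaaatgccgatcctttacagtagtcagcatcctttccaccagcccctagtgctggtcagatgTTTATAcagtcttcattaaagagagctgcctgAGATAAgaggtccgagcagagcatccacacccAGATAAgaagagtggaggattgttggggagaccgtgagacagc
Lrat: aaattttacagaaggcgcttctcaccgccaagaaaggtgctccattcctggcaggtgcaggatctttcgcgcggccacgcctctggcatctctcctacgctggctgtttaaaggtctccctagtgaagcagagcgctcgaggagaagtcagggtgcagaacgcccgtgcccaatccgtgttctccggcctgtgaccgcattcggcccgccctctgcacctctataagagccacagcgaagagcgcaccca
Colec11: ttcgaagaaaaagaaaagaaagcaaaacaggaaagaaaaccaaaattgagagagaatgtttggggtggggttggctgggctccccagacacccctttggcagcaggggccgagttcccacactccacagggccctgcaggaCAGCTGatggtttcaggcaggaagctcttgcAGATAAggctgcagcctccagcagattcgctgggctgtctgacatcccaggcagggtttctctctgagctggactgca

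Counted from the start site, AGATAA began at -219 and -33 in the Bmp10 promoter and at -75 and -43 in that of Gdf2, which also held TTTATA, the reverse complement of the core promoter box, at -107. The Colec11 promoter held CAGCTG at -109 and AGATAA at -78. Those of Bmp5 and Lrat held none of the motifs searched. Over the 36 genes called lower in each genotype, 25 had a promoter record, 33 promoters in all. AGATAA was in 9.09% of these promoters and in 8.64% of all 21979 promoters of measured genes, and CAGCTG in 15.2% and 12.8%. The letters GGCGCC of a BMP-SMAD element were in 9.09% and 12.2%, and the nuclear receptor half-site AGGTCA in 9.09% and 12.8%. TATAAA was in 24.2% and 11.1%, that is in 8 of the 33. The 33 promoters had a median GC content of 54.0% and 4 CpG, against 55.6% and 9 over all. AGATAA was in 3 of the 25 genes with a record, Bmp10, Gdf2 and Colec11. All of these are printed here, so the printed promoters over-represent it. A match to such letters is a description of the sequence and shows no binding.

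Bmp5 had the largest fall outside the targets. It measured 8.07, 8.90 and 8.21 in WT, 5.31, 4.81 and 5.10 in Stab1KO, 5.86, 6.25 and 5.53 in Stab2KO, and 4.81, 4.57 and 4.70 in DKO. All 9 knockout arrays lay below WT, the Stab2KO arrays above those of the other knockouts, and the pooled difference was -3.18 ± 0.19 (SE, limma adjusted p = 2.5e-05), a 9.06-fold lower signal. Bmp10 measured 6.99, 7.21 and 6.31 in WT and 4.41, 4.27 and 4.25 in Stab1KO. It was at 4.92, 5.24 and 4.81 in Stab2KO and 4.34, 4.17 and 4.11 in DKO, with a pooled difference of -2.33 ± 0.16 (adjusted p = 9.2e-05). Every Stab2KO array was above the arrays of the other knockouts and below those of WT. Gdf2 showed the same order, at 6.87, 7.64 and 6.97 in WT, 5.66, 5.92 and 5.15 in Stab2KO, 5.15, 4.88 and 4.84 in Stab1KO, and 4.80, 4.50 and 4.68 in DKO (-2.09 ± 0.18, adjusted p = 0.00028), though 1 Stab2KO array met the highest of Stab1KO. Gdf10, the gene that neighbours Gdf2, fell by 1.80 ± 0.20 (adjusted p = 0.0018) and was called in Stab1KO and DKO.

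Of 17 measured BMP and GDF ligand genes 4 fell and 0 rose, with a median of -0.21. At an unadjusted p under 0.05 there were 8 lower and 1 higher, against 875 and 696 of all 24011 genes. In all 3 genotypes 9 lay below WT and 4 above, against 22% and 21.2% over all genes. Bmp2 and Bmp6, the LSEC ligands that induce hepcidin in hepatocytes, were high in WT at 12.57 and 11.39 and differed by -0.13 ± 0.11 and -0.23 ± 0.10 without passing (adjusted p = 0.89 and 0.76). Bmp4 differed by 1.19 ± 0.29 without passing the test (adjusted p = 0.24). Of 27 BMP receptor, modulator and target genes 0 were called by limma, with 3 higher and 0 lower at an unadjusted p under 0.05 and a median of 0.08. The target genes Id1, Id3 and Smad6 differed by 0.09 ± 0.12, 0.05 ± 0.10 and 0.17 ± 0.10.

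Other secreted factors fell as well. Cxcl12, the chemokine that retains blood stem cells and lymphocytes through its receptor CXCR4, measured 9.32, 9.77 and 9.45 in WT, 7.36, 6.59 and 7.31 in Stab1KO, 7.89, 7.88 and 7.67 in Stab2KO, and 7.14, 6.89 and 6.93 in DKO. All 9 knockout arrays lay below WT, with DKO inside the range of Stab1KO, and the pooled difference was -2.22 ± 0.16 (adjusted p = 9.2e-05). It was the only one of 19 chemokine genes called. Hhip, which binds Hedgehog ligands and blocks their signal, fell by 2.32 ± 0.17 (adjusted p = 9.3e-05) from 6.27, 6.89 and 6.39 in WT to between 3.94 and 4.81 in the 9 knockout arrays. Its knockout values lay below the array median, where signal holds an unknown share of background. The same holds for the knockout mean of 15 of the 36 genes called in each genotype, Bmp10, Postn, Pdgfra and Nr1h5 among them. The DKO arrays of Bmp5 lay below the median too, so such fold sizes are uncertain. The angiopoietin-like gene Angptl6 (-1.31 ± 0.10) and Tnfrsf11b (-1.28 ± 0.15), which encodes the decoy receptor osteoprotegerin, completed the group. All 8 genes of secreted ligands and their inhibitors had arrays apart from WT, 6 were called in each genotype, and their median was -2.16.

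**Figure D1:**
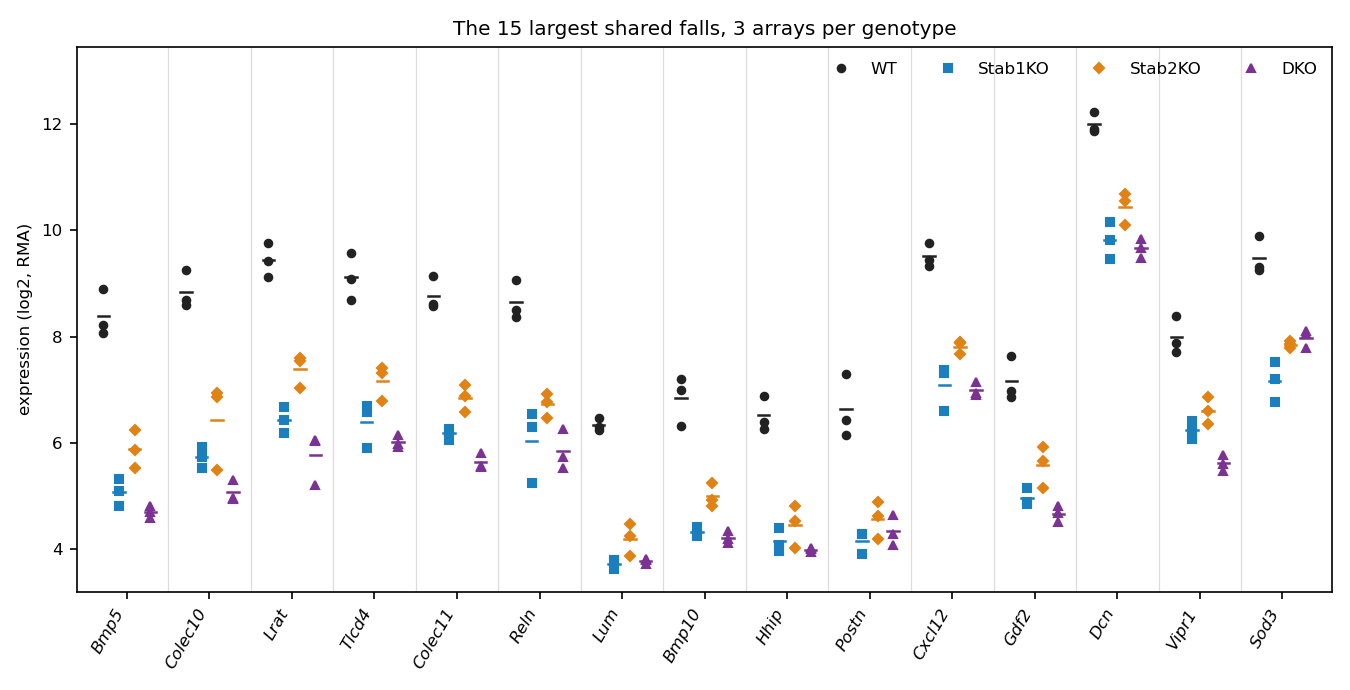
Expression (log2, RMA) of 15 genes with large shared falls, 1 point per array and a bar at each group's mean of 3 arrays. They are the largest falls among genes with all 9 knockout arrays below the 3 WT arrays, so that separation follows from the choice. Larger falls without it, such as Btnl9, are left out. Pooled differences run from -3.18 in Bmp5 to -1.82 in Sod3, and the Stab2KO points are mostly the nearest to WT.

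Genes known from stellate cells were among the falls, with 15 of the 78 lower genes on the stellate cell and pericyte list and 63 not on it. Of the 36 called in each genotype 12 were on it and 24 were not. The list is incomplete, since it lacks Bmp10, Gdf2 and Adamts13, and Tlcd4 was missed through its older symbol. Absence from it does not place a gene outside stellate cells. Of 27 measured stellate cell and pericyte genes 15 fell and 0 rose, with a median of -1.26, against -0.00 over all genes. In all 3 genotypes 24 lay below WT and 2 above, against 22% and 21.2% over all genes. By genotype the medians were -1.39 in Stab1KO, -0.99 in Stab2KO and -1.07 in DKO. The list's mean level was 7.84, 8.20 and 7.84 in the WT arrays, 6.53 to 6.69 in Stab1KO, 6.75 to 6.995 in Stab2KO and 6.41 to 6.62 in DKO. No knockout array reached the WT range, and the Stab2KO arrays lay above those of the other knockouts. The list was put together with earlier results of these data known, so its count is no independent evidence of its direction. In RNA from a bulk cell preparation, fewer cells of a type and less RNA per cell cannot be told apart. Which of the falls lie in stellate cells carried along with the beads, and which in endothelium, was not tested.

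The 2 genes of vitamin A metabolism that fell stand at its storage and its source. Lrat, which esterifies retinol for storage, measured 9.13, 9.77 and 9.42 in WT, 6.68, 6.42 and 6.18 in Stab1KO, 7.60, 7.54 and 7.02 in Stab2KO, and 6.03, 5.20 and 6.05 in DKO. The 4 groups did not overlap, and the pooled difference was -2.91 ± 0.21 (adjusted p = 9.2e-05). Its 3 knockouts were also unequal among themselves (F-test over the knockouts, adjusted p = 0.029). Bco1, which cleaves beta-carotene to retinal, was at 4.73, 5.05 and 4.73 in WT and 3.66 to 4.10 in the knockouts (-1.0 ± 0.10, adjusted p = 0.00077), all below the array median. The other 20 of 22 measured retinoid genes were not called. Dhrs3 and Aldh1a1, enzymes that reduce retinal and oxidise it, differed by 0.01 ± 0.08 and 0.14 ± 0.16.

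Among collectin genes Colec10 and Colec11 fell, which encode CL-L1 and CL-K1, soluble lectins that bind microbial sugars and start complement through the MASP proteases. Colec10 measured 8.69, 9.26 and 8.59 in WT, 5.73, 5.93 and 5.51 in Stab1KO, 6.85, 6.93 and 5.49 in Stab2KO, and 5.30, 4.93 and 4.96 in DKO (-3.11 ± 0.27, adjusted p = 0.00028). Stab2KO replicate 3 lay just below the Stab1KO arrays and the other 2 nearer WT. Colec11 measured 8.57, 9.13 and 8.62 in WT, 6.27, 6.21 and 6.05 in Stab1KO, 7.09, 6.88 and 6.58 in Stab2KO, and 5.81, 5.54 and 5.56 in DKO (-2.55 ± 0.14, adjusted p = 9.8e-06). Its groups were all apart, and the knockouts were unequal (adjusted p = 0.020). The mannose-binding lectin genes Mbl1 and Mbl2 differed by -0.11 ± 0.09 and 0.09 ± 0.09. Masp1, the protease gene of the same pathway, was at 11.73 in WT and differed by -0.09 ± 0.07. The ficolin gene Fcna differed by -1.38 ± 0.28 without passing (adjusted p = 0.091), and no other gene of the 16 measured was called.

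Matrix genes formed the largest group by role, with 15 members, 10 of them called in each genotype and a median of -1.10. The roles were assigned after the genes were known. Lum and Dcn, neighbouring genes of the small leucine-rich proteoglycans that bind collagen fibrils, both fell. Lum measured 6.29, 6.46 and 6.24 in WT, 3.78, 3.75 and 3.62 in Stab1KO, 4.46, 4.24 and 3.86 in Stab2KO, and 3.79, 3.81 and 3.72 in DKO (-2.44 ± 0.11, adjusted p = 2.0e-06). Its knockout arrays lay far below the median of 5.11. Dcn stayed high, at 11.87, 12.23 and 11.92 in WT, 10.16, 9.47 and 9.82 in Stab1KO, 10.56, 10.70 and 10.10 in Stab2KO, and 9.84, 9.48 and 9.66 in DKO (-2.03 ± 0.16, adjusted p = 0.00018). Bgn, the related biglycan gene, was at 13.52 in WT and differed by 0.08 ± 0.05.

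Postn and Reln encode periostin and reelin, secreted proteins that are known stabilin ligands. Postn measured 6.15, 7.30 and 6.43 in WT and 3.91 to 4.88 over the 9 knockout arrays (-2.28 ± 0.23, adjusted p = 0.00088). Reln, also a stellate cell marker, measured 8.37, 9.06 and 8.51 in WT, 6.54, 5.24 and 6.29 in Stab1KO, 6.92, 6.78 and 6.47 in Stab2KO, and 6.25, 5.52 and 5.73 in DKO (-2.45 ± 0.26, adjusted p = 0.0015). In both genes every knockout array was below WT, and the knockouts overlapped one another. Sparc and Tgfbi, ligands of the same list, differed by -0.09 ± 0.07 and by -1.25 ± 0.38 (adjusted p = 0.43). The matrix regulator gene Ecm1 was at 11.14, 11.20 and 10.99 in WT and fell by 0.84 ± 0.08 (adjusted p = 0.00077).

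Collagen genes fell in part. Of 18 measured, Col14a1 (-1.18 ± 0.13, adjusted p = 0.0015), Col6a1 (-0.74 ± 0.10, adjusted p = 0.0053) and Col1a2 (-0.71 ± 0.13, adjusted p = 0.046) fell, 0 rose, and the median was -0.10. Col1a1 and Col3a1, whose products join or accompany that of Col1a2 in fibrils, differed by -0.41 ± 0.11 and -0.85 ± 0.17 without passing (adjusted p = 0.34 and 0.085). The basement membrane genes Col4a1 and Col4a2 differed by -0.06 ± 0.11 and -0.10 ± 0.11. Laminin chain genes Lamb1 (-1.41 ± 0.24) and Lama1 (-0.82 ± 0.14) fell, as did the gelatinase gene Mmp2 (-0.92 ± 0.10). Further falls were in the secreted glycoprotein genes Adamtsl2 (-1.10 ± 0.09) and Srpx2 (-1.30 ± 0.14), and in Adamts13 (-0.66 ± 0.09), whose stellate cell product cleaves von Willebrand factor. Emilin1, an elastic fibre gene at 10.85, 11.05 and 11.10 in WT, had the smallest fall of the group, 0.41 ± 0.07 (adjusted p = 0.046), and it was called in DKO only.

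The 11 genes of receptors and other signalling surface proteins all had arrays apart from WT, with a median of -1.30. Pdgfra and Pdgfrb, the receptors for platelet-derived growth factor that mark mesenchymal cells and pericytes, fell by 1.78 ± 0.19 (adjusted p = 0.0014) and 1.26 ± 0.17 (adjusted p = 0.0075). Pdgfra measured 6.03, 7.01 and 6.72 in WT and 4.55 to 5.27 in the knockouts. Vipr1, the receptor for vasoactive intestinal peptide, was at 7.88, 8.40 and 7.71 in WT, 6.22, 6.07 and 6.41 in Stab1KO, 6.59, 6.86 and 6.36 in Stab2KO, and 5.77, 5.59 and 5.47 in DKO (-1.85 ± 0.15, adjusted p = 0.00019). DKO was lowest, and the knockouts were unequal (adjusted p = 0.049). Pth1r, for parathyroid hormone, and Agtr1a, for angiotensin II, fell by 1.69 ± 0.12 and 1.68 ± 0.14.

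Fgfr2, a fibroblast growth factor receptor, differed in its pattern. It was at 8.07, 8.74 and 8.37 in WT, 6.88, 5.78 and 6.28 in Stab1KO, 7.0, 6.80 and 6.65 in Stab2KO, and 7.85, 6.99 and 7.83 in DKO. The DKO mean was nearest to WT, though 1 DKO array lay within the Stab2KO range, and the pooled difference was -1.5 ± 0.24 (adjusted p = 0.026) with a call in Stab1KO alone. The inequality among the knockouts was not called for it. The others of this group were the collagen receptor Ddr2 (-1.30 ± 0.14), the Slit receptor Robo2 (-1.15 ± 0.14), Disp2 of the dispatched family (-1.05 ± 0.10), the glypican Gpc4 (-0.69 ± 0.09) and the UDP-sugar receptor P2ry14 (-0.46 ± 0.08).

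The lower genes included 4 of transcription factors. Tcf21, a stellate cell factor, was at 5.29, 6.25 and 5.75 in WT and 4.07 to 4.85 in the knockouts (-1.39 ± 0.18, adjusted p = 0.0041). Foxf1, a forkhead factor of visceral mesenchyme, was at 6.61, 7.06 and 6.56 in WT and 5.64 to 6.26 in the knockouts (-0.83 ± 0.12, adjusted p = 0.010). Tbx20 (-1.27 ± 0.17) and the nuclear receptor gene Nr1h5 (-1.56 ± 0.18) were the others. Of these only Nr1h5 was called in each genotype. Hand2, another stellate cell factor, differed by -0.85 ± 0.16 without passing (adjusted p = 0.062).

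Genes of cyclic nucleotide and G protein signalling formed a group of 6 with a median of -0.75. They were the guanylate cyclase subunits Gucy1a1 (-1.03 ± 0.16) and Gucy1a2 (-0.55 ± 0.08), which take part in the response to nitric oxide, the phosphodiesterases Pde1a (-0.85 ± 0.09) and Pde8b (-0.52 ± 0.08), the G protein regulator Rgs4 (-0.65 ± 0.11) and Arhgap42 (-1.70 ± 0.21). Gucy1a1 was called in Stab1KO only, and its DKO arrays at 6.87, 6.22 and 6.39 were all above the other knockouts and came closest to the WT values of 7.08, 7.34 and 7.03. The oxygen-handling genes were Sod3, extracellular superoxide dismutase, and Cygb, the globin of stellate cells. Sod3 measured 9.31, 9.89 and 9.25 in WT, 7.53, 6.77 and 7.20 in Stab1KO, 7.78, 7.92 and 7.85 in Stab2KO, and 8.05, 7.78 and 8.11 in DKO (-1.82 ± 0.17, adjusted p = 0.00041). Here Stab1KO lay lowest. Cygb fell by 1.70 ± 0.14 (adjusted p = 0.00022) from 8.77, 9.49 and 9.26 in WT.

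The remaining 26 lower genes had a median of -0.97, and 5 were called in each genotype. Tlcd4, a membrane protein gene that the stellate list holds under its older symbol Tmem56 and that was not counted there, fell by 2.60 ± 0.21 (adjusted p = 0.00019), from 9.09, 9.57 and 8.69 in WT to 5.89 to 7.40 in the knockouts. Cdh2, which encodes N-cadherin, fell by 1.65 ± 0.16, Fam171b fell by 1.54 ± 0.13, Ms4a4d fell by 1.51 ± 0.19 and the peptidase gene Naalad2 fell by 0.70 ± 0.08. From 1.5 in Cped1 to 1.01 in Rab3b were the falls of these genes and of Islr, Wfdc1, Olfml3, Cep83os and the small nucleolar RNA Snord92. Smaller ones were in Sprn, Olfml1, Susd2, Mamdc2, Lrrn3, Syt9, Sfxn2, Arl3, Nat14, Baalc and Trib2, from 0.93 in Sprn to 0.36 in Trib2. Btnl9, Olfr1396 and Lrmda belong to the genes that rested on 1 genotype, described further on.

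**Figure D2:**
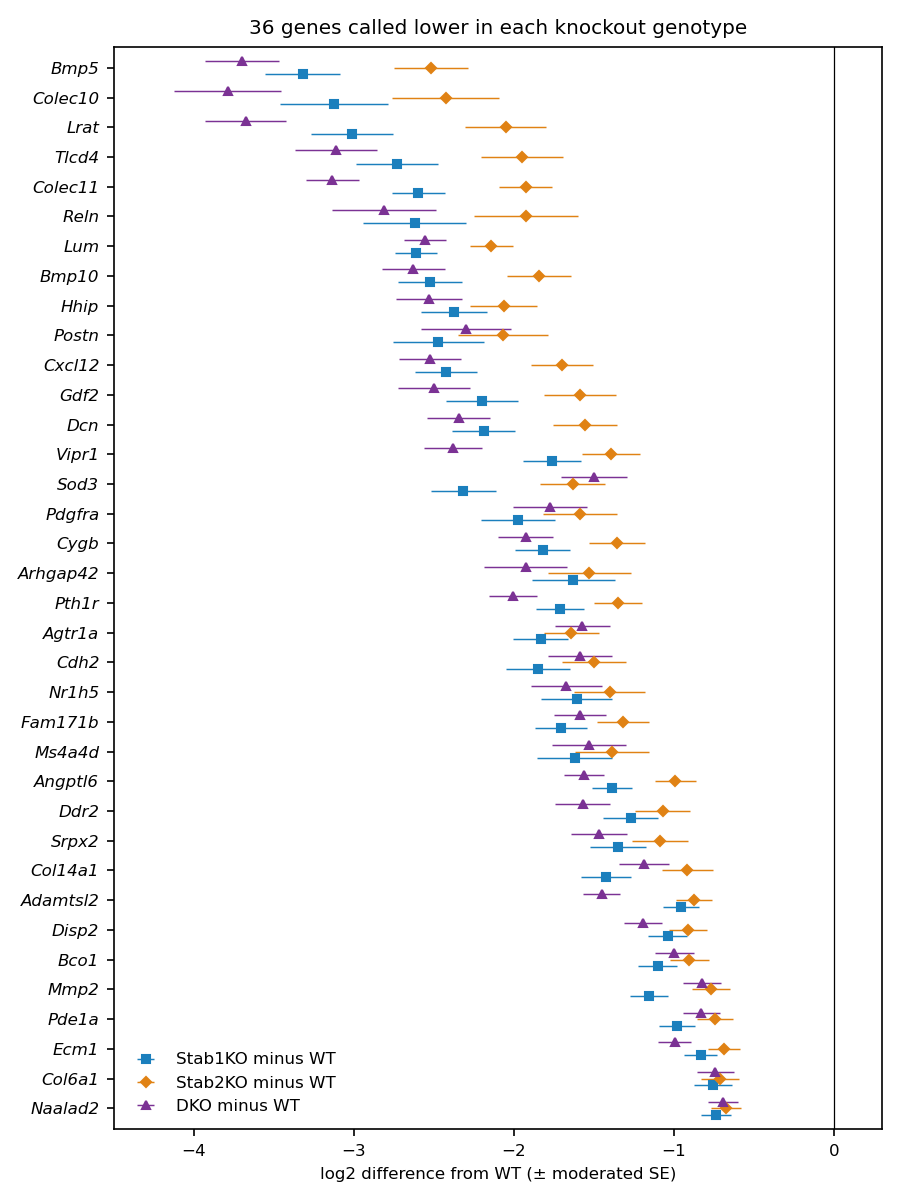
Log2 difference from WT, with its moderated SE, of the 36 genes called lower in each knockout genotype, with Stab1KO, Stab2KO and DKO as separate points on each line. All points lie left of 0 by the choice of the genes, and in 34 of the 36 genes the Stab2KO point is the one nearest to 0.

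Within the 36 genes called in every genotype, the falls had an order. The median was -1.79 in Stab1KO, -1.45 in Stab2KO and -1.72 in DKO. Stab2KO had the smallest fall in 34 of them and the largest in 0, while the largest was in DKO for 22 and in Stab1KO for 14. Over all 78 lower genes Stab2KO had the smallest fall in 58. An F-test among the 3 knockouts, which uses no WT array in its differences, called 410 genes (1.71%) over all and 21 of the 91, 15 lower and 6 higher. Among the 36 it called only Colec11, Lrat, Adamtsl2 (adjusted p = 0.047) and Vipr1. For the other 32 the test did not pass after adjustment over all genes, which does not show that their genotypes were equal. Its unadjusted p was 0.0026 in Cxcl12, for example, and 0.94 in Col6a1. Bmp5, with -3.32, -2.52 and -3.70 in the 3 genotypes, came close (adjusted p = 0.056). The number of unequal genes changed with single arrays. It was 515 without DKO replicate 3, and 268, 215 and 174 without WT replicates 1, 2 and 3. It was 208 and 172 without Stab1KO replicates 2 and 3, 126 and 89 without Stab2KO replicates 1 and 2, and 125 without DKO replicate 1.

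The WT arrays were not equal in these genes either. WT replicate 2 was the highest of the 3 in 34 of the 36 genes and in 59 of the 76 lower genes that are not targets. It also had the highest Kupffer cell level, 9.90 against 7.99 and 9.27, and the highest hepatocyte level, 8.71 against 7.62 and 8.11. The large-vessel endothelial level was lowest in it, 8.90 against 9.37 and 9.19. The part of these levels in the falls was not tested. Without WT replicate 2, 56 genes were lower in 1 direction in place of 78, and 23 in each genotype in place of 36. Without Stab2KO replicate 2, 19 fell in each genotype. Even so, 35 of the 36 kept the pooled call without any 1 of the 12 arrays, the exception being Col6a1, which lost it without WT replicate 3.

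Some of the 91 genes had 1 sign in all 3 genotypes but a sizeable difference in only 1 or 2. Of the lower genes 17 were called in 1 genotype only, 12 of them in DKO, 4 in Stab1KO and 1 in Stab2KO. Btnl9, a butyrophilin-like gene, was at 11.80, 11.70 and 11.52 in WT and at 4.64, 5.33 and 4.72 in DKO, but at 11.68, 11.25 and 11.43 in Stab1KO. Its differences were -0.22 in Stab1KO, -0.82 in Stab2KO and -6.78 in DKO. Olfr1396, an olfactory receptor gene 4 positions away from Btnl9 among measured genes, went with it (-0.08, -1.06 and -4.69). Lrmda differed in Stab2KO (-2.15) and hardly in Stab1KO (-0.05) or DKO (-0.31). Cep83os fell in Stab2KO and DKO (-1.56 and -1.72) and not in Stab1KO (-0.10). The pooled mean therefore stands for no single genotype in these genes, and the F-test called each of them (adjusted p from 1.1e-07 to 0.010).

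Some of the 91 genes are neighbours. Within 5 positions in the order of measured genes lay 10 pairs, a count with no value for other genes beside it, with direct neighbours in Dcn and Lum, Gdf10 and Gdf2, Arl3 and Sfxn2, Syt9 and Olfml1, and Nt5dc2 and Stab1. Arl3 and Sfxn2 shared a pattern, with differences of -0.79 and -1.0 in Stab1KO, -0.22 and -0.22 in Stab2KO, and -0.79 and -0.71 in DKO. Colec10 and Tnfrsf11b were 2 positions apart, Ddr2 and Rgs4 4, and Lrat and Gucy1a1 5, as were Adamts13 and Adamtsl2. For Nt5dc2, which lies beside the targeted Stab1, a chromosome segment carried with the allele cannot be told apart from the genotype. Gdf10 and Gdf2 (promoters from chr14:33923337 and chr14:33940789) lie on the chromosome of Stab1 (chr14:31168642). Cep83os (chr10:94688614) lies on that of Stab2 (chr10:87007943). The same limit applies to these 3 genes, though Gdf10 and Gdf2 were lower in Stab2KO too.

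Rises shared by the 3 genotypes were smaller and less stable. Nt5dc2, the direct neighbour of Stab1, had the largest, 2.96 ± 0.11 (adjusted p = 5.0e-07). It measured 7.57, 7.58 and 7.14 in WT, 11.94, 11.98 and 11.99 in Stab1KO and 11.37, 11.70 and 11.32 in DKO, but 7.73, 7.87 and 7.61 in Stab2KO. The rise was thus that of the genotypes lacking Stab1, and Stab2KO differed by 0.31 without a call. Entpd1, the CD39 enzyme that breaks down extracellular ATP on endothelium, measured 10.66, 9.97 and 10.02 in WT, 11.51, 11.69 and 11.42 in Stab1KO, 11.24, 11.06 and 10.59 in Stab2KO, and 11.75, 11.80 and 11.67 in DKO. It rose by 1.19 ± 0.16 (adjusted p = 0.0064), and 1 Stab2KO array fell within the WT range.

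Hs3st1 and Sdc1 act in heparan sulfate at the cell surface, and both rose. Hs3st1, which adds a sulfate that antithrombin binds, was at 7.98, 7.12 and 7.30 in WT and 8.13 to 8.78 in the knockouts (0.97 ± 0.16, adjusted p = 0.030). Sdc1, the core protein syndecan-1, was at 7.68, 7.17 and 7.39 in WT, 8.02, 7.82 and 7.93 in Stab1KO, 8.39, 8.35 and 8.48 in Stab2KO, and 8.47, 8.24 and 8.26 in DKO (0.80 ± 0.10, adjusted p = 0.0040). In both genes all 9 knockout arrays were above WT. The glypican gene Gpc4, another such core protein, was among the falls.

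Among markers of large-vessel endothelium 2 were called higher, and neither call was stable. Of 21 measured, Cd34, a sialomucin of continuous endothelium, rose by 0.64 ± 0.10 (adjusted p = 0.025) and Gja5, the arterial connexin, by 0.54 ± 0.10 (adjusted p = 0.046), 0 fell, and the median was 0.21. Cd34 measured 8.92, 8.39 and 8.58 in WT, 9.16, 8.85 and 8.98 in Stab1KO, 9.23, 9.25 and 9.30 in Stab2KO, and 9.65, 9.49 and 9.53 in DKO. In both genes Stab1KO overlapped WT, and the other knockouts did not. With 1 array left out at a time, Cd34 kept its call in 5 of 12 runs and Gja5 in 1. Cavin3, a caveolar coat gene, rose by 0.58 ± 0.10 (adjusted p = 0.037), with little of it in Stab1KO (0.13). Cdc42ep3, an effector of the small GTPase Cdc42, rose by 0.55 ± 0.10 (adjusted p = 0.046).

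Nnt, the mitochondrial transhydrogenase that makes NADPH, was higher in every knockout array. It measured 7.96, 8.07 and 7.83 in WT, 9.08, 8.96 and 9.21 in Stab1KO, 8.99, 8.97 and 8.58 in Stab2KO, and 8.28, 8.46 and 8.78 in DKO (0.86 ± 0.12, adjusted p = 0.0086). C57BL/6J mice are known to carry a deletion within this gene that related substrains lack, and the arrays do not show which allele a pool held. Wdfy1, an endosomal adaptor gene, was at 7.64, 7.76 and 7.67 in WT and 7.84 to 8.59 in the knockouts (0.58 ± 0.07, adjusted p = 0.0019). The potassium channel gene Kcnn4 rose by 0.49 ± 0.07 and the potassium-chloride cotransporter gene Slc12a7 by 0.42 ± 0.07, both with arrays apart from WT. Slc12a7 had nearly equal differences of 0.41, 0.45 and 0.40 in the 3 genotypes. Elf3, an epithelial transcription factor gene, was a DKO rise, at 5.81, 5.61 and 5.82 there and at 3.89 to 4.41 in the other 9 arrays.

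The number of shared rises changed with the arrays used. It was 13 with all arrays, but 41 without WT replicate 1, which held the highest WT value in 8 of the 13, and 4 and 6 without WT replicates 2 and 3. It was 7 without Stab2KO replicate 1, 7 without DKO replicate 1 and 22 without DKO replicate 3. Of the 91 genes 53 were called without any 1 array, 50 lower and 3 higher. Just inside the threshold were Emilin1 and Col1a2 (adjusted p = 0.046 for both), and just outside it Ptgfrn (0.43) and Gpat2 (-0.48), both at an adjusted p of 0.0504.

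**Figure D3:**
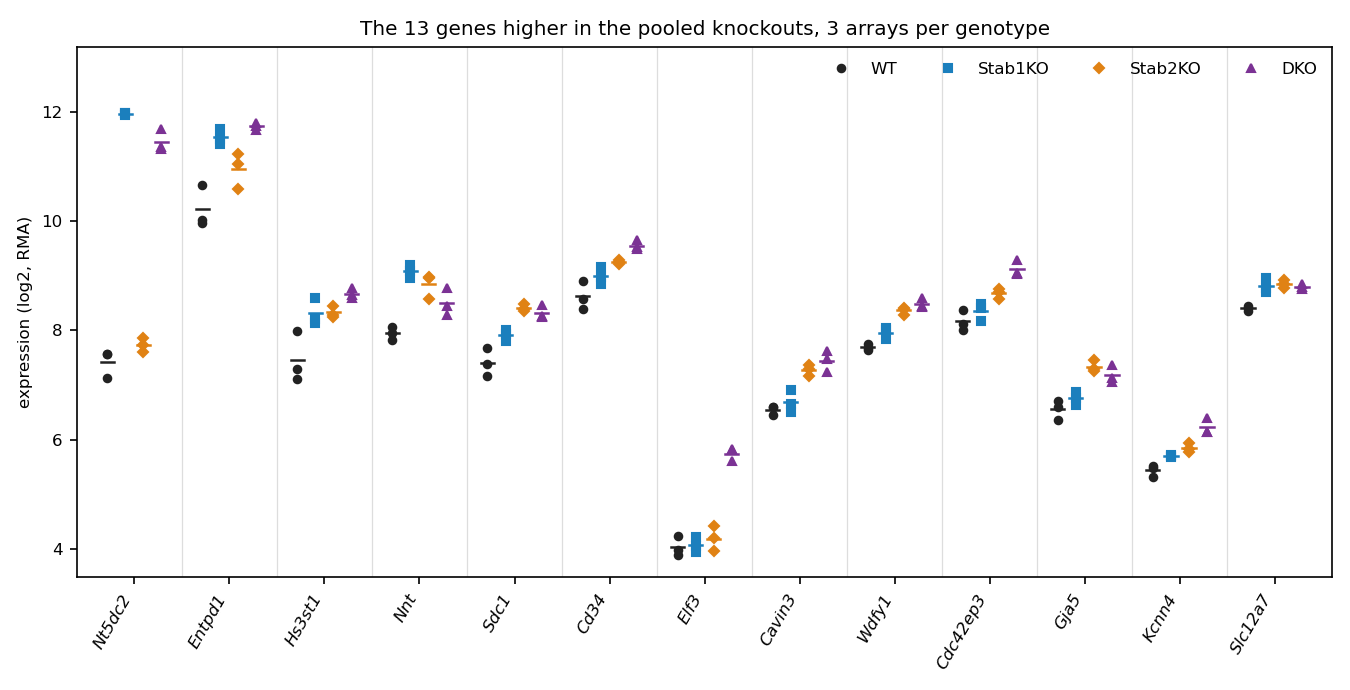
Expression (log2, RMA) of the 13 genes that were higher in the pooled knockouts, 1 point per array and a bar at each group's mean of 3 arrays. Nt5dc2 is high in Stab1KO and DKO only and Elf3 in DKO only, and the other differences are between 0.42 and 1.19.

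A pair of genes passed the pooled test without sharing a direction. Ass1, the urea cycle enzyme argininosuccinate synthase, differed by -1.65 in the pooled mean, made of 0.19 in Stab1KO, -2.54 in Stab2KO and -2.60 in DKO. Nt5dc3, the neighbour of Stab2, differed by 1.76, made of -0.00, 2.72 and 2.57. Both followed the loss of Stab2. For Nt5dc3 a chromosome segment carried with the Stab2 allele cannot be told apart from the genotype.

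Marker lists of other cell types were also measured beside the falls, and their part in the falls was not tested. For comparison, 875 of all 24011 genes were lower and 696 higher at an unadjusted p under 0.05. Kupffer cell genes had a median of -0.54 with 0 of 15 called by limma (2 lower and 0 higher at an unadjusted p under 0.05), and their level in the WT arrays, 7.99 to 9.90, spanned that of the knockouts at 7.68 to 9.48 but for its lower end. Smooth muscle and contractile genes had a median of 0.03 with 0 of 15 called (3 lower and 1 higher unadjusted). Cholangiocyte genes had a median of 0.40 with 0 of 8 called (4 higher and 0 lower unadjusted), at 6.61 to 7.28 in DKO and 5.45 to 6.11 in the other 9 arrays. Neutrophil genes had a median of 1.18 with 0 of 14 called, and none passed unadjusted either. Of 18 hepatocyte genes Ass1 was the one called. Scavenger and endocytic receptors besides the stabilins had a median of 0.00 with 0 of 23 called (3 lower and 2 higher unadjusted). Among them Mrc1, Fcgr2b and Cd36, abundant LSEC receptors, differed by -0.13 ± 0.07, -0.05 ± 0.06 and 0.02 ± 0.07.

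**Figure D4:**
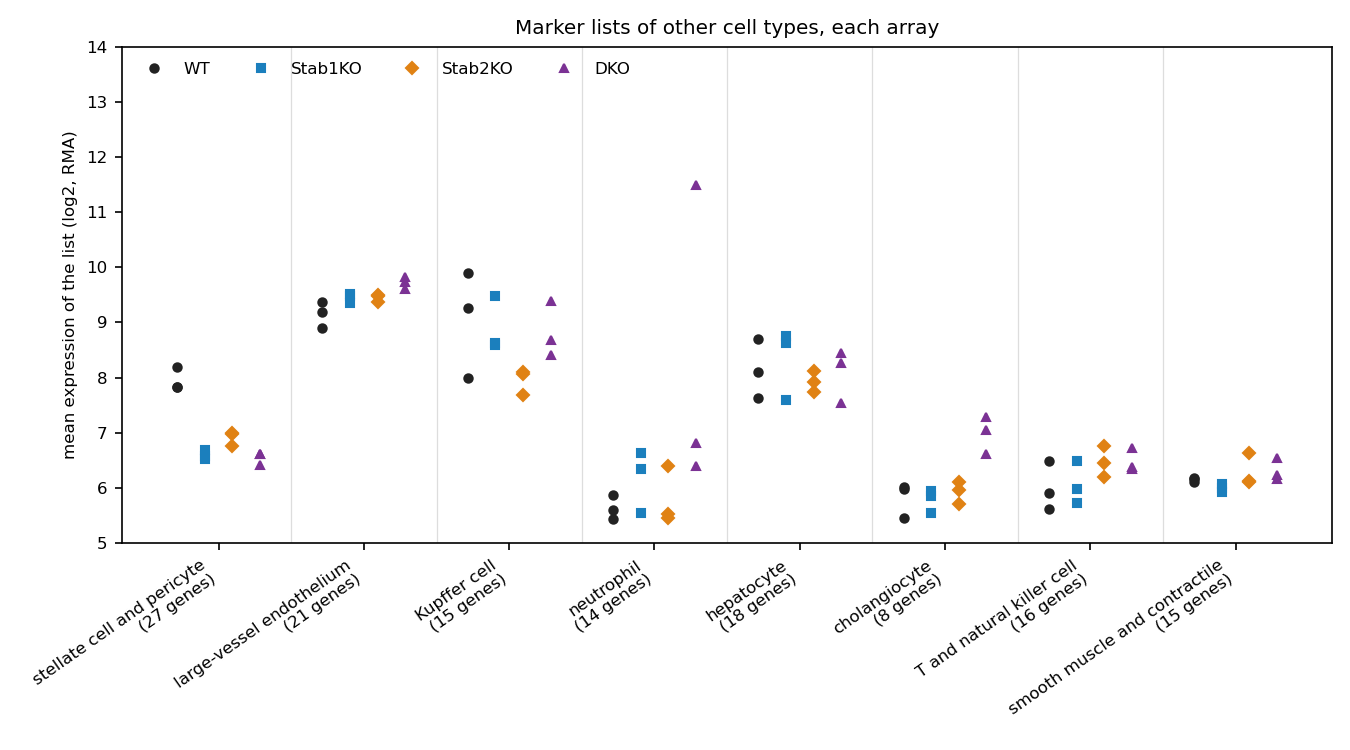
Mean expression (log2, RMA) of marker lists of 8 other cell types in each of the 12 arrays, with groups side by side within a list. The stellate cell and pericyte list is the one with all WT points, 7.84 to 8.20, above all knockout points, 6.41 to 6.995, and DKO replicate 3 is the single high point of the neutrophil list at 11.5.

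Lists of function differed in their calls. Calls were in BMP and GDF ligands (4 of 17), matrix (5 of 27) and collagens (3 of 18). They were also in collectins (2 of 16) and known stabilin ligands (2 of 9), among others, against 0.387% over all genes. Over 32 lists of 569 genes, of which 536 were measured, 32 of the 91 genes were on a list, and 15 of the 36 called in each genotype were on none. The 91 are 0.379% of all genes. The lists were chosen with earlier results known, so these shares are no independent evidence. In the lists that follow 0 were called, and over all 24011 genes 875 were lower and 696 higher unadjusted. Immediate early genes, the first to be transcribed after a stimulus, had a median of 0.24 with 0 of 24 called (5 higher and 0 lower unadjusted), and their medians by genotype were -0.13, 0.10 and 0.87. Lysosomal genes had a median of -0.05 with 0 of 23 called (2 lower unadjusted), and hyaluronan genes one of -0.02 with 0 of 12 called and none unadjusted. Interferon-stimulated genes had a median of 0.10 with 0 of 22 called (1 higher unadjusted).

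**Figure D5:**
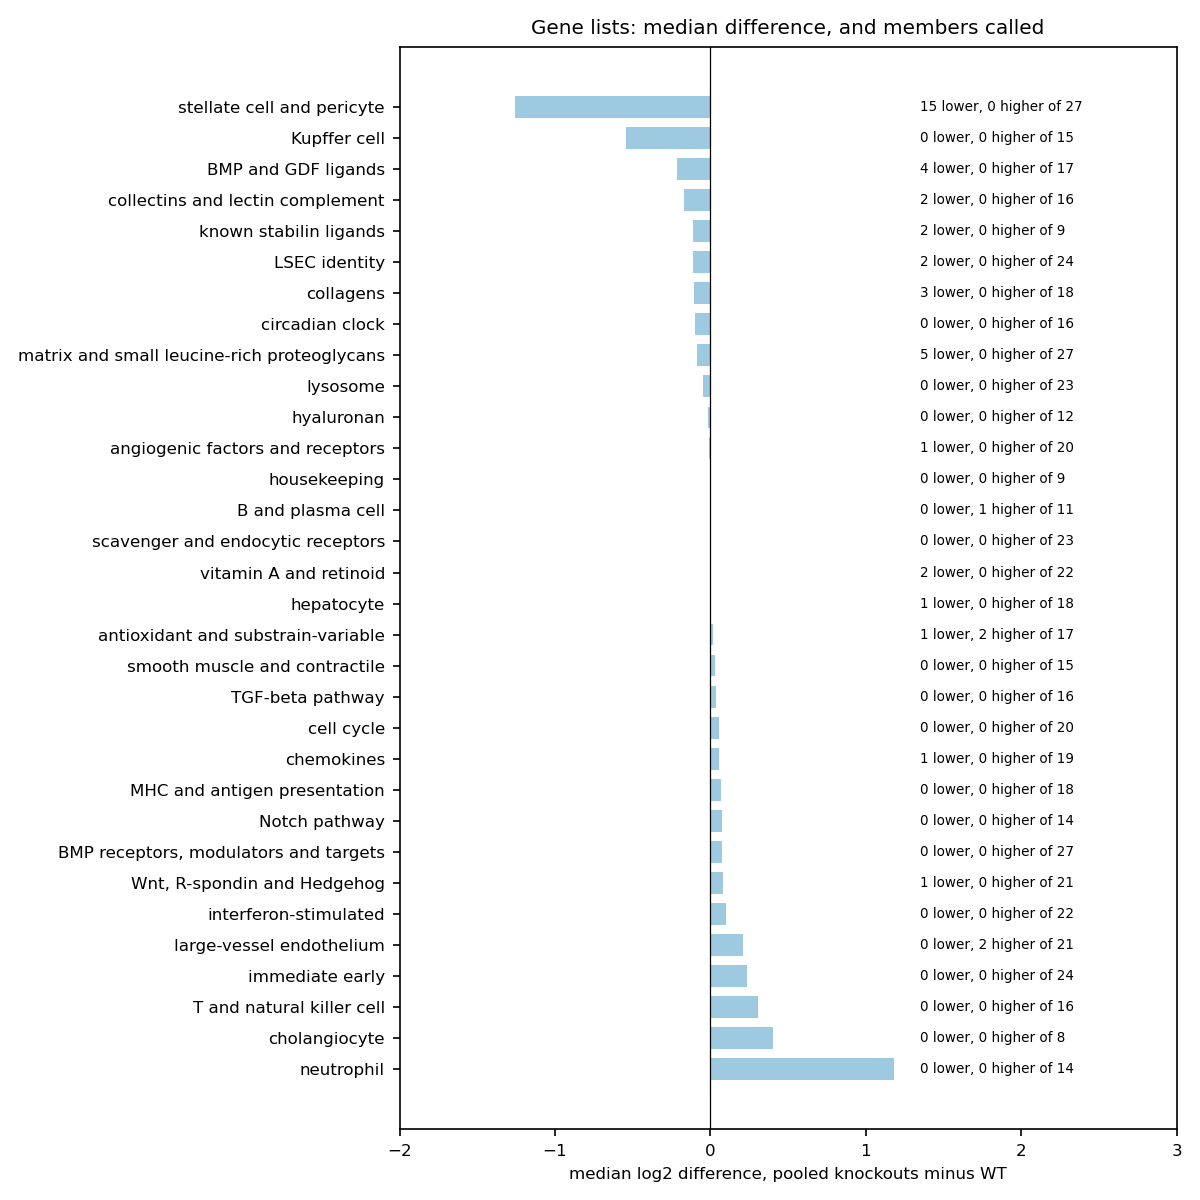
Median log2 difference of the pooled knockouts from WT for each of 32 gene lists (bars), with the number of members called in each direction. The stellate cell and pericyte list has the lowest median, -1.26, with 15 of 27 members lower, and the neutrophil list the highest, 1.18, with 0 of 14 called.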

How the data were processed

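Expression in LSECs was measured on 12 Affymetrix arrays, 3 in each of 4 groups, each array from its own pool of 3 mice per the labels, so p-values measure the spread between pools. The deposited values are log2 expression per gene, made with RMA per the submitters' processing notes, with no version or annotation build given in the sources used here. Of 24973 deposited features 24015 had 1 gene symbol and 958 none listed; 4 with repeated symbols were left out and 24011 genes tested. No signal filter was applied, and array data give no depth, so the number of arrays limits the precision.

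A model with 4 group means was fitted in limma 3.58.1 (R 4.3.3). The pooled contrast is the mean of the 3 knockout means minus WT, and an F-test compared the 3 knockouts. P-values were adjusted by Benjamini-Hochberg over 24011 genes, at a threshold of 0.05. In data simulated for the pooled comparison over 24011 genes, 63% of genes changed by 0.5 log2, 91% by 1 and 97% by 2 were recovered, with 6 false among 173 calls.

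By rule the text names Stab1, Stab2, the 15 largest falls and 10 largest rises with all knockout arrays beyond WT, up to 4 called genes per list (where none was called, 2 as values) and the 5 called genes most unequal among the knockouts, with placeholder symbols and small RNAs counted only. The remaining genes called in 1 direction, Snord92 included, are named so that each is accounted for. Other genes given with values that did not pass were chosen after their values were seen. The members, lists and role groups were chosen with earlier results of these data known. Promoters were matched by Entrez gene ID (67 of 91 genes). Alternatives were a replicate block, array weights, a trended robust fit, a low-signal filter, quantile normalization, all features, a 2-group model, a minimum difference of 1 log2, and leaving out each array or genotype.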

Additional observations from a re-analysis of the deposited data

Results flagged for a closer look

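Among the 9 knockout arrays, 15 of 124 named genes examined (Stab1 and Stab2 left out) had 1 array far from the rest by Dixon's criterion. Chance meets this criterion in about 1 in 20 groups. DKO replicate 3 was the highest array, in log2, in Retnlg (12.83), S100a8 (12.76), Tgfbi (11.22), Fosl1 (11.02), Acvrl1 (10.04), Notch2 (9.84), Tnfaip6 (9.51), Oas3 (9.15) and Cd44 (8.96), and the lowest in Ecm1 (9.88). Stab1KO replicate 2 was the lowest array in Agtr1a (5.23), Cdh2 (5.01) and Olfml1 (3.79). Stab2KO replicate 1 was the highest in Lrrn3 (4.27) and Pde1a (4.34).

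The F-test among the 3 knockouts found unequal differences from WT in 31 of the named genes, which were Stab1, Stab2 and 124 others. Over all genes it called 410 (1.71%). Since 5 of the named genes were chosen as the most unequal, part of the 31 follows from the choice. In brackets are the log2 differences in Stab1KO, Stab2KO and DKO with limma's adjusted p of that test. The targets and their neighbours were Stab1 (-7.24, -0.01 and -7.31, adjusted p = 1.1e-10), Nt5dc2 (4.55, 0.31 and 4.04, adjusted p = 1.1e-07), Stab2 (-0.04, -6.24 and -6.40, adjusted p = 0.00015) and Nt5dc3 (-0.00, 2.72 and 2.57, adjusted p = 0.00015). Among the falls were Lrat (-3.01, -2.05 and -3.68, adjusted p = 0.029), Colec11 (-2.60, -1.93 and -3.14, adjusted p = 0.02), Vipr1 (-1.76, -1.39 and -2.38, adjusted p = 0.049), Adamtsl2 (-0.96, -0.88 and -1.45, adjusted p = 0.047) and Snord92 (-0.74, -1.17 and -1.74, adjusted p = 0.04). Smaller falls were Sfxn2 (-1.0, -0.22 and -0.71, adjusted p = 0.032), Emilin1 (-0.19, -0.30 and -0.75, adjusted p = 0.026), Trib2 (-0.22, -0.10 and -0.76, adjusted p = 0.0073), Cep83os (-0.10, -1.56 and -1.72, adjusted p = 0.01) and Lrmda (-0.05, -2.15 and -0.31, adjusted p = 0.00038). DKO differed most in Btnl9 (-0.22, -0.82 and -6.78, adjusted p = 1.1e-07), Olfr1396 (-0.08, -1.06 and -4.69, adjusted p = 0.00023), Rab3b (-0.45, -0.82 and -1.76, adjusted p = 0.0092) and Elf3 (0.04, 0.15 and 1.72, adjusted p = 0.00038). Among the rises were Cavin3 (0.13, 0.72 and 0.90, adjusted p = 0.028), Cdc42ep3 (0.19, 0.51 and 0.95, adjusted p = 0.029), Kcnn4 (0.26, 0.41 and 0.79, adjusted p = 0.032) and Wdfy1 (0.27, 0.68 and 0.80, adjusted p = 0.023).

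Genes outside the shared falls and rises also differed between knockouts. They were Arntl (-0.52, 0.11 and 1.41, adjusted p = 0.029), H2-T10 (0.27, 1.42 and 0.52, adjusted p = 0.047), H2-T23 (0.23, -1.33 and 0.10, adjusted p = 0.0022), Hamp (-0.08, 2.60 and 1.97, adjusted p = 0.035), Hexa (0.01, -0.14 and -0.83, adjusted p = 0.0066), Muc1 (0.13, 0.26 and 1.86, adjusted p = 0.026), Nr4a3 (-0.11, 0.11 and 2.37, adjusted p = 0.035) and Tspan8 (-0.14, 0.55 and 1.62, adjusted p = 0.011). The H2 genes have near-identical copies, so their probes may read more than 1 of them. Ass1 stood at 0.19, -2.54 and -2.60, adjusted p = 0.0065.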

How the results depend on the processing

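No named gene that was called in the main or the alternative run reversed its direction. A change of sign in a gene called in neither run was not counted. Leaving out 1 array at a time, the pooled comparison called 5 to 42 genes higher and 56 to 86 lower, and 4 to 41 and 56 to 85 of them had 1 direction in all 3 genotypes. Genes called in each genotype numbered 0 to 5 higher and 19 to 41 lower, and genes unequal among the knockouts 89 to 515. With array weights 61 genes were higher, 54 of them in 1 direction, 2 rose in each genotype and 1096 were unequal. As 2 groups 4 were higher, all 4 in 1 direction. Keeping only called genes with a pooled difference over 1 log2, with the test against 0 unchanged, left 3 higher and 52 lower, with 2 and 51 in 1 direction. The pooled mean without Stab1KO gave 39 higher, all 39 with 1 sign in the genotypes that remained. Without DKO it gave 9 higher, 8 of them with 1 sign in the remaining genotypes. The sign in the genotype left out was not asked for here. The cause was not tested in these cases, beyond the fewer samples that leaving out arrays brings.

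Of the 91 genes 85 kept their call in the trended robust fit and 77 with the low-signal filter, which tested 14406 genes. Deviations of same-numbered arrays correlated at -0.06 to 0.29, with a median of 0.055 and 4 of 18 pairs above 0.1. Those of differently numbered arrays correlated at -0.27 to 0.21, with a median of -0.038 and 5 of 36 pairs above 0.1. Whether the replicate numbers stand for a pairing was not tested. With the replicate block 10 genes were higher and 68 lower in 1 direction, 72 of the 91 kept their call, and 35 genes fell in each genotype. Genes near the array median are limited by background signal.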

Other observations

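Some genes lay on 1 side of WT in all 3 genotypes without passing the pooled limma test, and they were picked after their values were seen. In large-vessel endothelium these were Fbln2, a matrix glycoprotein gene (1.19 ± 0.22, adjusted p = 0.059), and Selp, the P-selectin gene (1.00 ± 0.22, adjusted p = 0.16). In the stellate cell and pericyte list Rgs5, a pericyte marker, was lower (-1.54 ± 0.34, adjusted p = 0.16) and so was Hgf, the hepatocyte growth factor gene (-0.69 ± 0.13, adjusted p = 0.076). Of that list Rspo3, which strengthens Wnt signals and is also made by the endothelium of central veins (0.63 ± 0.22, adjusted p = 0.59), and Ednrb, an endothelin receptor gene (0.53 ± 0.20, adjusted p = 0.69), were the ones above WT in all 3.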
